A study of Mus musculus with 12 samples.

Results

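The genes described here are 44 interferon response genes: genes that interferons are known to switch on, together with the sensors and transcription factors that start and carry that response. They were taken by gene symbol, with no measured value in the rule, but the list was chosen with earlier results of these data known. All 44 had a row in the table of 31099 genes. Of the 44, 42 had enough counts to be tested. The other two, Mx1 and Oas3, stayed between 0 and 0.617 CPM (counts divided by the scaled library total) in every library. RNA was measured in cells sorted from 2 fat depots of wild-type CD-1 mouse pups aged 3 days, with males and females mixed: perivascular fat, taken with the thoracic aorta, and inguinal white fat. The 4 groups were perivascular progenitors, perivascular preadipocytes, inguinal progenitors sorted as DPP4+ and inguinal preadipocytes sorted as ICAM1+, with 3 libraries each. Each library came from pooled pups, and a library number names the same pool in all 4 groups. What surface markers defined the perivascular sorts is not stated in the labels, so a difference between depots and one between sort gates cannot be told apart.

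Interferons are secreted proteins that cells make when nucleic acid sensors such as RIG-I and MDA5 detect viral RNA. Type I interferons bind a receptor of IFNAR1 and IFNAR2, whose kinases JAK1 and TYK2 act on STAT2, which with IRF9 is part of the factor ISGF3, and ISGF3 binds the interferon-stimulated response element. Interferon gamma uses another receptor, and its signal is known to reach genes through the gamma-activated site. Many of the target genes are also transcribed at a low level without infection.

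The promoters of several members hold the letters to which these factors are known to bind, and some are shown so that the letters can be read beside the levels of the same genes below. RefSeq promoters, 250 bases before to 50 bases after an annotated start in build GRCm38.p6, were matched by symbol for 33 of the 44 members. The core of the interferon-stimulated response element, GAAA, any 2 bases and GAAA again, was looked for on both strands, and overlapping matches were all counted. It was present in 18 of the 33 members (54.5%), against 3.99% of the 27025 genes with a promoter of the same length. The letters TTCNNNGAA, the core of the gamma-activated site, were present on either strand in 8 of the 33 (24.2%), against 9.55% of all genes. Both were present in 4 members. A match describes the letters in this window and is not a measured binding site. In the stretches that follow, capitals mark the matches. Coordinates are those of the whole stretch, and the strand is that of the gene, along which it is printed. Where the capitals read TTTC, any 2 bases and TTTC, the core lies on the opposite strand. Isg15, which encodes a ubiquitin-like protein, had 3 overlapping response element matches on the minus strand at chr4:156200860-156200911. Ifit3 (chr19:34583358-34583431, plus strand) and its neighbour Ifit3b (chr19:34607754-34607827, plus strand) had the same 74 bases with 2 matches. Stat2, a subunit of ISGF3, had 1 match within chr10:128270261-128270300, printed along the plus strand. Ifi205, of the nucleic acid sensing PYHIN family, had 1 shown here within chr1:174031865-174031904, printed along the minus strand. Irf1, a transcription factor, had a gamma-activated site match only, at chr11:53769909-53769947 on the plus strand. The GTPase genes Gbp7 (chr3:142530215-142530307, plus strand) and Igtp (chr11:58199496-58199546, plus strand) had both kinds.
Isg15: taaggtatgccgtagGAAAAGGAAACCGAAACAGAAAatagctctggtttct
Ifit3: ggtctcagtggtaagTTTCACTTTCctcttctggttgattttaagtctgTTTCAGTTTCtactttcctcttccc
Ifit3b: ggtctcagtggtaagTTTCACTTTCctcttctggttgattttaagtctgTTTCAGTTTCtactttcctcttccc
Stat2: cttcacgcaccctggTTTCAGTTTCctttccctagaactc
Ifi205: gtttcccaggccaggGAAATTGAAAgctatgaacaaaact
Irf1: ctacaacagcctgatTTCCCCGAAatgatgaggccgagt
Gbp7: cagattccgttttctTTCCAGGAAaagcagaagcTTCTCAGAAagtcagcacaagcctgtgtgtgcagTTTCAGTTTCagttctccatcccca
Igtp: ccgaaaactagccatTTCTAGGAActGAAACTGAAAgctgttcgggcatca

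Library totals ran from 15614628 to 25674461 counts. Levels are CPM scaled by TMM factors, which correct for RNA composition and ran from 0.744 to 1.223. All values per library are given in the order of pools 1, 2 and 3. Library 1 of both perivascular groups differed most from the others of its group, and DPP4+ progenitor library 2 held the most RNA of blood cells and mast cells. Each comparison is therefore also given without these 3 libraries. Pdgfra, a defining gene of fat progenitors, was present in every library. It was at 118 to 240 CPM in perivascular preadipocytes, 388 to 716 in perivascular progenitors, 450 to 544 in DPP4+ progenitors and 530 to 755 in ICAM1+ preadipocytes. Ly6a, another progenitor marker and itself known to respond to interferon, was at 3.23 to 4.99 CPM in perivascular preadipocytes, 359.6 to 558 in perivascular progenitors, 813 to 897 in ICAM1+ preadipocytes and 1694 to 2267 in DPP4+ progenitors.

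Across the 42 tested members, perivascular preadipocytes had the lowest mean of the 4 groups for 30 members, where they had the lowest for 34.0% of all genes tested. ICAM1+ preadipocytes had the highest mean for 22 members, where they had the highest for 18.6% of all genes. All perivascular preadipocyte libraries lay below those of the group with the next mean for 19 of the 30. All ICAM1+ libraries lay above those of the group with the next mean for 10 of the 22. Shares over all genes were not taken for these counts without overlap. DPP4+ progenitors were highest for 14 members (27.5% of all genes), perivascular progenitors for 5 (18.2%) and perivascular preadipocytes for 1 (35.8%). The median deviation of the members from each gene's own mean log2 CPM was -0.67, -0.89 and -0.63 in the 3 perivascular preadipocyte libraries and 0.49, 0.51 and 0.53 in the ICAM1+ libraries. It was 0.19, 0.34 and 0.25 in DPP4+ progenitors and -0.13, 0.03 and 0.14 in perivascular progenitors. Over all genes the same median stayed between -0.07 and 0.04. The libraries of the 2 preadipocyte groups thus lay at opposite ends, with the progenitors between them. Because these are bulk samples, fewer cells that express a gene and less of its RNA per cell cannot be told apart.

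**Figure D1:**
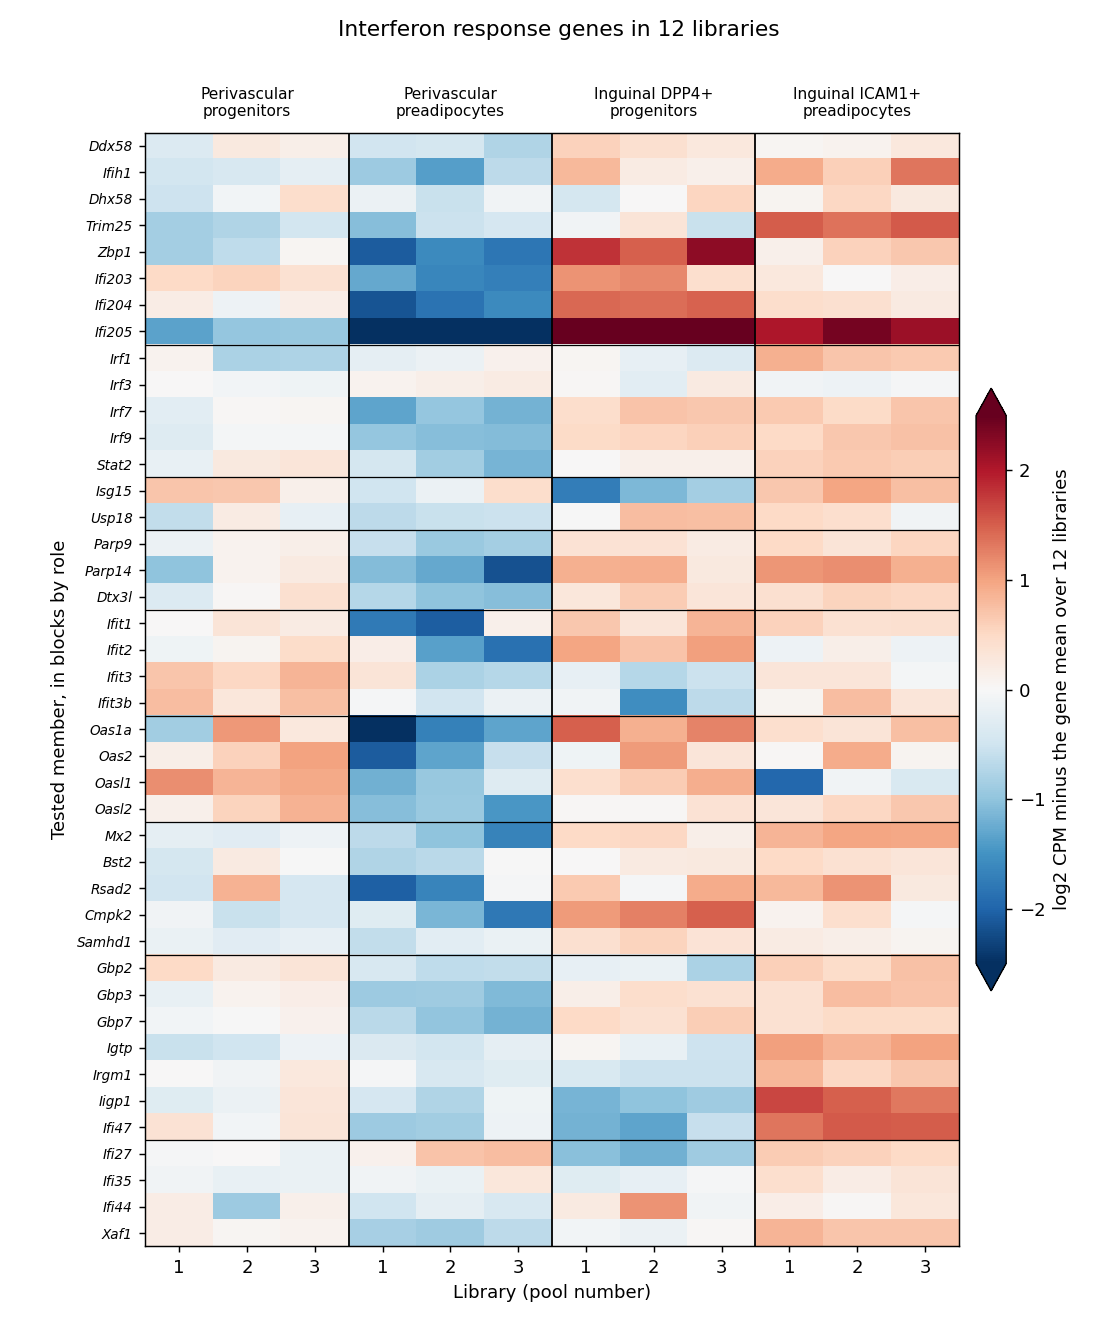
Each row is 1 tested member and each column 1 library; colour is log2 CPM minus the gene's mean over the 12 libraries, with values beyond 2.5 in either direction shown at the end of the scale. The 3 perivascular preadipocyte columns are blue for most members, and their median deviations are -0.67, -0.89 and -0.63.

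Per kilobase of exon, the scale on which genes can be compared, Ifi27 had the highest mean of the members in each group, at 129 CPM per kilobase in ICAM1+ and 127 in perivascular preadipocytes, and 83.3 in perivascular and 42.1 in DPP4+ progenitors. Irf1 was next in each group, from 26.6 CPM per kilobase in perivascular progenitors to 60.3 in ICAM1+ preadipocytes.

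The first comparison asks how preadipocytes of the perivascular depot differ from those of the inguinal depot. Interferon response genes were lower in the perivascular cells. Of the 42 members tested, 33 were lower in perivascular preadipocytes than in ICAM1+ preadipocytes and 0 were higher (edgeR quasi-likelihood test with Benjamini-Hochberg adjustment over all genes). Among all 18855 genes tested, 21.4% were called lower and 23.5% higher. A fall of at least 2-fold was called for 26 members, against 13.6% of all genes. The median log2 fold change of the members was -1.40, beside 0.04 over all genes. At least 1 member of each functional class was lower, among them all 7 genes of the GTPase families and 7 of the 8 nucleic acid sensors and their regulators. At an unadjusted p under 0.05 there were also 0 members higher, and DESeq2 called 33 lower and 0 higher. Without the 3 libraries named above, 35 members were lower and 0 higher.

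Of the sensors, Ifi205 was at 1.81, 2.36 and 2.38 CPM in perivascular progenitors and 0.295, 0.147 and 0.107 CPM in perivascular preadipocytes. In the inguinal cells it was at 31.2, 38 and 46.7 CPM in DPP4+ progenitors and 19.5, 25.2 and 21.1 CPM in ICAM1+ preadipocytes. The perivascular preadipocyte values rest on 6, 3 and 2 counts, and all of them lay below all libraries of the other groups. By the edgeR fold change, Ifi205 was 115-fold lower there than in ICAM1+ preadipocytes (log2 -6.84, SE 0.32, adjusted p = 4.77e-08). Ifi204, a PYHIN protein known to sense DNA, was at 13, 10.4 and 12.8 CPM in perivascular progenitors and 2.46, 3.08 and 3.7 CPM in perivascular preadipocytes. It was at 30.8, 30.3 and 31.8 CPM in DPP4+ progenitors and 15.6, 15 and 13.3 CPM in ICAM1+ preadipocytes. None of the groups overlapped, although the nearest libraries of perivascular progenitors and ICAM1+ preadipocytes were close, at 13 and 13.3 CPM. Between the preadipocytes the difference was 4.74-fold (log2 -2.25, SE 0.19, adjusted p = 3.52e-06). Reads of Ifi204 are uncertain in part, because 16.8% of the 100-base windows of its longest transcript also occur in other genes of its family.

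Ifi203, another PYHIN gene, was at 6.14, 6.39 and 5.63 CPM in perivascular progenitors and 1.72, 1.32 and 1.23 CPM in perivascular preadipocytes. The inguinal values were 9.5, 10.1 and 5.82 CPM in DPP4+ progenitors and 5.21, 4.34 and 4.88 CPM in ICAM1+ preadipocytes, and the perivascular preadipocytes lay below all other libraries (3.35-fold lower than ICAM1+ preadipocytes, log2 -1.75, SE 0.25, adjusted p = 0.000199). Zbp1, which senses Z-form nucleic acids and can start cell death, was low throughout the perivascular groups, at 0.723, 0.864 and 1.46 CPM in perivascular progenitors and 0.246, 0.391 and 0.322 CPM in perivascular preadipocytes. It was at 5.21, 4.18 and 6.97 CPM in DPP4+ progenitors and 1.53, 2.13 and 2.31 CPM in ICAM1+ preadipocytes, with the DPP4+ libraries above all others. Perivascular preadipocytes held 6.14-fold less Zbp1 than ICAM1+ preadipocytes (log2 -2.62, SE 0.38, adjusted p = 0.000208).

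Trim25, a ubiquitin ligase known to activate RIG-I, was at 11.4, 12.2 and 15.1 CPM in perivascular progenitors and 9.93, 14.2 and 15.6 CPM in perivascular preadipocytes. It was at 19.6, 25.9 and 14.1 CPM in DPP4+ progenitors and 59.2, 53.1 and 60.4 CPM in ICAM1+ preadipocytes, so that the ICAM1+ libraries stood alone above the other 3 groups (4.35-fold lower in perivascular preadipocytes, log2 -2.12, SE 0.23, adjusted p = 3.05e-05). Ifih1, which encodes the RNA sensor MDA5, was at 1.86, 1.96 and 2.22 CPM in perivascular progenitors and 1.33, 0.929 and 1.61 CPM in perivascular preadipocytes. In inguinal cells Ifih1 was at 4.64, 3.04 and 2.87 CPM in DPP4+ progenitors and 5.09, 3.99 and 6.79 CPM in ICAM1+ preadipocytes, and the perivascular preadipocytes were 4.09-fold below the ICAM1+ preadipocytes (log2 -2.03, SE 0.31, adjusted p = 0.000256). Ddx58, which encodes RIG-I, was also lower (log2 -0.69, SE 0.17, adjusted p = 0.00610), from 33.5 ± 2.73 (SD, n = 3) to 20.7 ± 2.3 CPM. Dhx58, which encodes the regulator LGP2, did not pass the test at 3.5 ± 0.558 and 2.38 ± 0.416 CPM.

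Of the 5 transcription factors, 4 were lower in perivascular preadipocytes. Irf9, the DNA-binding subunit of ISGF3, was at 32.4, 39.3 and 39.2 CPM in perivascular progenitors and 20.7, 19.4 and 19.1 CPM in perivascular preadipocytes. Its inguinal values were 56.2, 59.1 and 61.4 CPM in DPP4+ progenitors and 56.9, 64.3 and 67.6 CPM in ICAM1+ preadipocytes. The 2 inguinal groups overlapped, the perivascular progenitors lay below both, and the perivascular preadipocytes were lowest. Irf9 was 3.19-fold lower in perivascular than in ICAM1+ preadipocytes (log2 -1.67, SE 0.13, adjusted p = 2.51e-06). Stat2, its partner, was at 27, 36 and 37.9 CPM in perivascular progenitors and 22.5, 16.7 and 13.7 CPM in perivascular preadipocytes. It was at 30.8, 33.3 and 33.2 CPM in DPP4+ progenitors and 45.5, 47.9 and 46.8 CPM in ICAM1+ preadipocytes, with ICAM1+ preadipocytes above and perivascular preadipocytes below every library of the other groups (2.65-fold, log2 -1.41, SE 0.19, adjusted p = 0.000114).

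Irf7, which amplifies type I interferon transcription, was at 4.7, 5.76 and 5.84 CPM in perivascular progenitors and 2.21, 2.84 and 2.41 CPM in perivascular preadipocytes. In the inguinal groups Irf7 was at 7.72, 9.26 and 9.1 CPM in DPP4+ progenitors and 8.95, 7.86 and 9.2 CPM in ICAM1+ preadipocytes. Perivascular preadipocytes again lay below all other libraries, 3.48-fold below ICAM1+ preadipocytes (log2 -1.8, SE 0.2, adjusted p = 3.05e-05). Irf1, an activator known to respond mainly to interferon gamma, was more abundant than the other factors and was 134 ± 15.9 CPM in perivascular and 239.6 ± 22 in ICAM1+ preadipocytes (log2 -0.83, SE 0.22, adjusted p = 0.00904). Irf3, which is activated by phosphorylation downstream of the sensors, passed the test in none of the comparisons. It was at 33.7, 32 and 31.2 CPM in perivascular progenitors and 35.6, 37.5 and 38.7 CPM in perivascular preadipocytes. It was at 34.4, 28.2 and 39.4 CPM in DPP4+ progenitors and 31.8, 30.7 and 33.1 CPM in ICAM1+ preadipocytes. The DPP4+ range covered all 3 other groups, and the log2 fold change between the preadipocytes was 0.23 (adjusted p = 0.200).

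**Figure D2:**
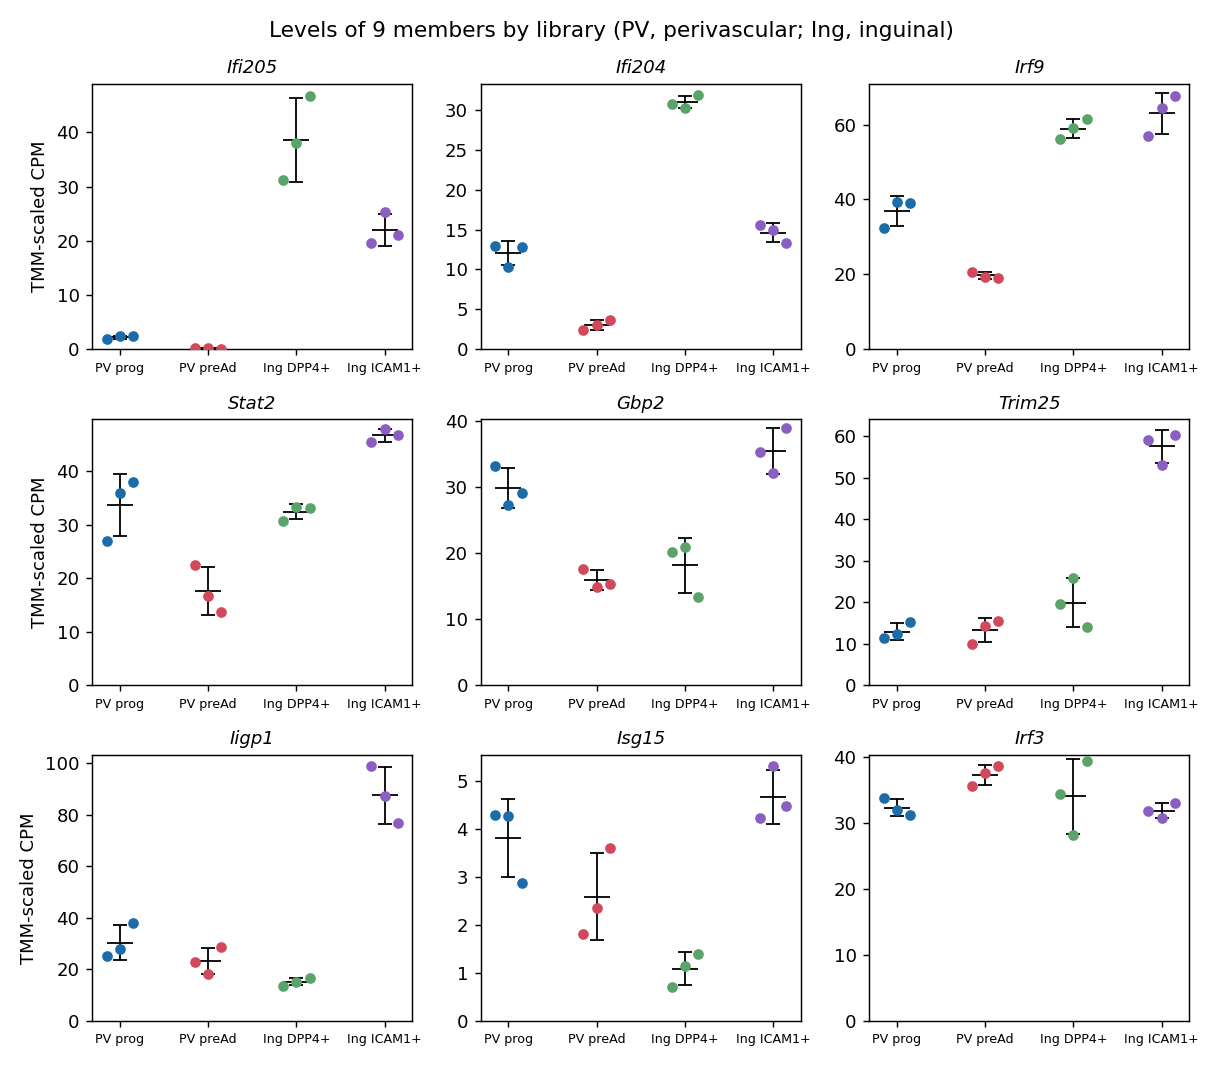
TMM-scaled CPM of 9 members in the 12 libraries; points are libraries, the long bar is the mean and the whiskers are 1 SD of 3. Perivascular preadipocytes are lowest for Ifi205, Ifi204, Irf9 and Stat2, ICAM1+ preadipocytes stand alone at the top for Trim25 and Iigp1, DPP4+ progenitors are lowest for Isg15, and Irf3 stays between 28.2 and 39.4 CPM.

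The guanylate-binding proteins and immunity-related GTPases, which are known to attack the vacuoles of intracellular pathogens, were lower in perivascular preadipocytes for all 7 members tested. Iigp1 was at 25, 27.9 and 37.9 CPM in perivascular progenitors and 22.9, 18.1 and 28.5 CPM in perivascular preadipocytes. It was at 13.7, 15.3 and 16.5 CPM in DPP4+ progenitors and 98.8, 87.2 and 76.7 CPM in ICAM1+ preadipocytes. The ICAM1+ libraries lay far above the other 3 groups and the DPP4+ libraries below them, and the preadipocytes differed 3.77-fold (log2 -1.92, SE 0.2, adjusted p = 2.37e-05). Ifi47 had the same order of group means, at 6.04, 4.49 and 5.9 CPM in perivascular progenitors and 2.46, 2.54 and 4.29 CPM in perivascular preadipocytes. Its inguinal values were 2.0, 1.82 and 3.12 CPM in DPP4+ progenitors and 12.1, 13.7 and 13.7 CPM in ICAM1+ preadipocytes, a 4.25-fold difference between the preadipocytes (log2 -2.09, SE 0.27, adjusted p = 9.55e-05). Reads of 4 more members are uncertain where their exons overlap other genes, over 8.78% of the exon length of Ifi47, 8.01% of Igtp, 11.3% of Gbp7 and 16.8% of Ifi35.

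Igtp was at 5.99, 6.28 and 8.12 CPM in perivascular progenitors and 6.83, 6.4 and 7.56 CPM in perivascular preadipocytes. In inguinal cells it was at 9.22, 7.74 and 6.15 CPM in DPP4+ progenitors and 18.3, 16.1 and 17.9 CPM in ICAM1+ preadipocytes, so that only the ICAM1+ libraries stood apart (2.51-fold, log2 -1.33, SE 0.2, adjusted p = 0.000229). Irgm1, which regulates the other GTPases of its family, was at 30.5, 28.7 and 36.2 CPM in perivascular progenitors and 29.8, 22.8 and 24.5 CPM in perivascular preadipocytes. Its inguinal values were 23.4, 20.8 and 20.8 CPM in DPP4+ progenitors and 53.7, 43.3 and 48.3 CPM in ICAM1+ preadipocytes, with the ICAM1+ libraries again above all others (1.88-fold, log2 -0.91, SE 0.15, adjusted p = 0.000552).

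Gbp2 was at 33.2, 27.2 and 29.1 CPM in perivascular progenitors and 17.6, 14.9 and 15.2 CPM in perivascular preadipocytes. It was at 20.2, 20.9 and 13.4 CPM in DPP4+ progenitors and 35.3, 32.1 and 39 CPM in ICAM1+ preadipocytes. Here perivascular progenitors and ICAM1+ preadipocytes were high and overlapped, the other two groups were low and overlapped, and the preadipocytes differed 2.23-fold (log2 -1.15, SE 0.18, adjusted p = 0.000347). Gbp3 was at 12.4, 15.3 and 16.1 CPM in perivascular progenitors and 7.57, 7.63 and 6.6 CPM in perivascular preadipocytes. Its inguinal values were 15.8, 19.4 and 18.6 CPM in DPP4+ progenitors and 18.6, 24.4 and 23.3 CPM in ICAM1+ preadipocytes, and perivascular preadipocytes lay below all other libraries (3.04-fold, log2 -1.6, SE 0.18, adjusted p = 3.09e-05). Gbp7 was at 40.2, 41.9 and 45.8 CPM in perivascular progenitors and 26.4, 21.5 and 18.7 CPM in perivascular preadipocytes. At 59.7, 55 and 65 CPM in DPP4+ progenitors and 55.6, 59.1 and 59.5 CPM in ICAM1+ preadipocytes, the inguinal groups overlapped each other and lay above both perivascular groups (2.62-fold between the preadipocytes, log2 -1.39, SE 0.15, adjusted p = 2.47e-05).

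The ADP-ribosyltransferase genes Parp9 and Parp14 and Dtx3l, the ubiquitin ligase partner of PARP9, were all lower in perivascular preadipocytes. Parp9 was at 16.1, 18.9 and 19.7 CPM in perivascular progenitors and 11.8, 9.24 and 9.82 CPM in perivascular preadipocytes. The inguinal libraries had 22.7, 22.7 and 20.3 CPM in DPP4+ progenitors and 25.2, 22.2 and 25.8 CPM in ICAM1+ preadipocytes (2.37-fold between the preadipocytes, log2 -1.25, SE 0.16, adjusted p = 7.73e-05). Parp9 and Dtx3l overlap head to head on chromosome 16, and 9.4% of the exon length of Parp9 also lies in Dtx3l, so reads there are uncertain. Dtx3l was at 12.5, 16.2 and 20.8 CPM in perivascular progenitors and 9.59, 7.82 and 7.56 CPM in perivascular preadipocytes. It was at 19.4, 24.5 and 19.5 CPM in DPP4+ progenitors and 20.9, 23.3 and 22.8 CPM in ICAM1+ preadipocytes (2.68-fold, log2 -1.42, SE 0.2, adjusted p = 0.000168). Parp14 was at 2.89, 6.28 and 6.98 CPM in perivascular progenitors and 2.75, 2.4 and 1.23 CPM in perivascular preadipocytes. In inguinal cells it was at 11.1, 11.2 and 7.05 CPM in DPP4+ progenitors and 12.9, 13.4 and 11.2 CPM in ICAM1+ preadipocytes, and the ICAM1+ libraries lay above both perivascular groups (5.85-fold, log2 -2.55, SE 0.36, adjusted p = 0.000175).

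Among the effector genes, all 5 tested restriction factors and nucleotide enzymes were lower in perivascular preadipocytes. They included Mx2 (log2 -2.12, SE 0.3, adjusted p = 0.000156) and Bst2, which encodes tetherin (log2 -0.84, SE 0.23, adjusted p = 0.00953). Mx2 belongs to a family of antiviral GTPases, but GENCODE lists it as a polymorphic pseudogene. Cmpk2, a mitochondrial nucleotide kinase, was at 15.3, 11 and 12.2 CPM in perivascular progenitors and 13.2, 7.33 and 4.67 CPM in perivascular preadipocytes. It was at 34.2, 39.1 and 46.3 CPM in DPP4+ progenitors and 17.4, 21.8 and 16 CPM in ICAM1+ preadipocytes, and its DPP4+ libraries lay above all others (2.19-fold lower in perivascular than in ICAM1+ preadipocytes, log2 -1.13, SE 0.3, adjusted p = 0.00972). Of the OAS family, some of whose members make the second messenger that activates RNase L, 3 of the 4 tested genes were lower. The most abundant of them, Oasl2, was at 10.6, 14.4 and 17.8 CPM in perivascular progenitors and 4.57, 5.08 and 3.49 CPM in perivascular preadipocytes. It was at 10.001, 9.95 and 12.5 CPM in DPP4+ progenitors and 12, 14 and 15.6 CPM in ICAM1+ preadipocytes, with perivascular preadipocytes below all other libraries (3.16-fold, log2 -1.66, SE 0.23, adjusted p = 0.000155). Oas1a lay at 0 to 0.161 CPM in perivascular preadipocytes and 0.736 to 1.03 in ICAM1+ preadipocytes (log2 -3.23, SE 0.74, adjusted p = 0.00390), and 40.9% of its 100-base windows also occur in Oas1g.

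Isg15 and Usp18, the protease that removes ISG15 from its targets, were both lower in perivascular preadipocytes. Isg15 was at 2.59 ± 0.912 CPM there and 4.67 ± 0.564 in ICAM1+ preadipocytes (log2 -0.86, SE 0.3, adjusted p = 0.0369). Its call was lost without ICAM1+ preadipocyte library 1, 2 or 3 or perivascular preadipocyte library 1 or 2 (log2 -1.21 to -0.71, adjusted p up to 0.119). Here and below, the ranges given with a lost call are over the 12 fits that each left out 1 library. Of the IFIT genes, which bind viral RNA, only Ifit1 was lower, and Ifit2, Ifit3 and Ifit3b did not pass. The Ifit1 call was lost without ICAM1+ preadipocyte library 1, 2 or 3 or perivascular preadipocyte library 1 or 2 (log2 -2.59 to -1.03, adjusted p up to 0.0972). Ifit3 was at 10.5, 9.15 and 11.6 CPM in perivascular progenitors and 8.01, 3.67 and 3.86 CPM in perivascular preadipocytes. It was at 5.57, 3.87 and 4.35 CPM in DPP4+ progenitors and 7.97, 7.94 and 6.17 CPM in ICAM1+ preadipocytes, and perivascular preadipocyte library 1 lay just above the highest ICAM1+ library. Reads of Ifit3 and Ifit3b are uncertain, since 31.7% of the windows of Ifit3 occur in Ifit3b.

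Xaf1, a factor known to promote cell death, was at 16.7, 15.2 and 15.6 CPM in perivascular progenitors and 8.21, 7.92 and 9.33 CPM in perivascular preadipocytes. It was at 13.9, 13.3 and 15.1 CPM in DPP4+ progenitors and 26.5, 23.9 and 23.7 CPM in ICAM1+ preadipocytes, so that ICAM1+ preadipocytes were highest and perivascular preadipocytes lowest with no overlap (2.91-fold, log2 -1.54, SE 0.15, adjusted p = 1.09e-05). Ifi27, a mitochondrial membrane protein gene, did not follow the other members. It was at 125, 128 and 113 CPM in perivascular progenitors and 137, 207 and 217 CPM in perivascular preadipocytes. It was at 61.7, 55.4 and 68.3 CPM in DPP4+ progenitors and 198, 189 and 180.2 CPM in ICAM1+ preadipocytes, the 2 preadipocyte groups overlapped, and the log2 difference between them was -0.02 (adjusted p = 0.941). Scaled by library totals, this value was 0.21. It was also above 0 without ICAM1+ library 1 (0.01), without perivascular preadipocyte library 1 (0.11) and without the 3 libraries that stood apart (0.11).

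Beside these results, the other cells the sorts could hold also differed. The summed level of 16 genes of blood cells and macrophages was 42.1 to 60.7 CPM in perivascular preadipocytes and 80.5 to 93.7 in ICAM1+ preadipocytes, and no gene was without counts in either group. Of the 16, edgeR called 6 lower and 0 higher (10 and 0 at an unadjusted p under 0.05 and by DESeq2). Among all genes 21.4% were called lower and 23.5% higher. Here and below, counts of such cell type lists stand beside the shares of all genes given for the same comparison. The 7 mast cell genes summed to 17.8 to 24.4 and 58.6 to 99.4 CPM, and 5 of the 6 tested were lower. The 6 Schwann cell genes summed to 16.3 to 23.3 and 118 to 135 CPM, with 5 lower. Of the 8 endothelial genes 3 were lower, with sums of 57.9 to 93.4 and 161 to 191 CPM. All 9 mesothelial genes were called, 6 higher and 3 lower, with sums of 39.4 to 85.2 and 31.1 to 46.1 CPM. Of the 8 smooth muscle and pericyte genes 1 was higher and 1 lower. Markers of the labelled cell types differed too. Of the 9 progenitor markers 0 were higher and 8 lower, and of the 7 preadipocyte markers 2 were higher and 4 lower. The part of other cells, or of a difference in the labelled cells, in the members' difference was not tested.

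With library totals in place of TMM factors, the median of all genes moved from 0.04 to 0.27 and that of the members from -1.40 to -1.18, with 29 members lower and 1 higher. Over the fits that each left out 1 library, 28 to 34 members were called lower, and 27 of the 33 kept their call in each. The other 6 were Isg15, Ifit1, Oas2, Rsad2, Usp18 and Samhd1. Oas2 was lost without ICAM1+ preadipocyte library 2 (log2 -2.66 to -1.55, adjusted p up to 0.0705), Rsad2 without ICAM1+ preadipocyte library 1 or 2 or perivascular preadipocyte library 1 or 2 (log2 -3.71 to -1.73, adjusted p up to 0.0989), Usp18 without ICAM1+ preadipocyte library 1 or 2 or perivascular preadipocyte library 2 (log2 -1.07 to -0.8, adjusted p up to 0.0738) and Samhd1 without ICAM1+ preadipocyte library 1 (log2 -0.63 to -0.42, adjusted p up to 0.0538).

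**Figure D3:**
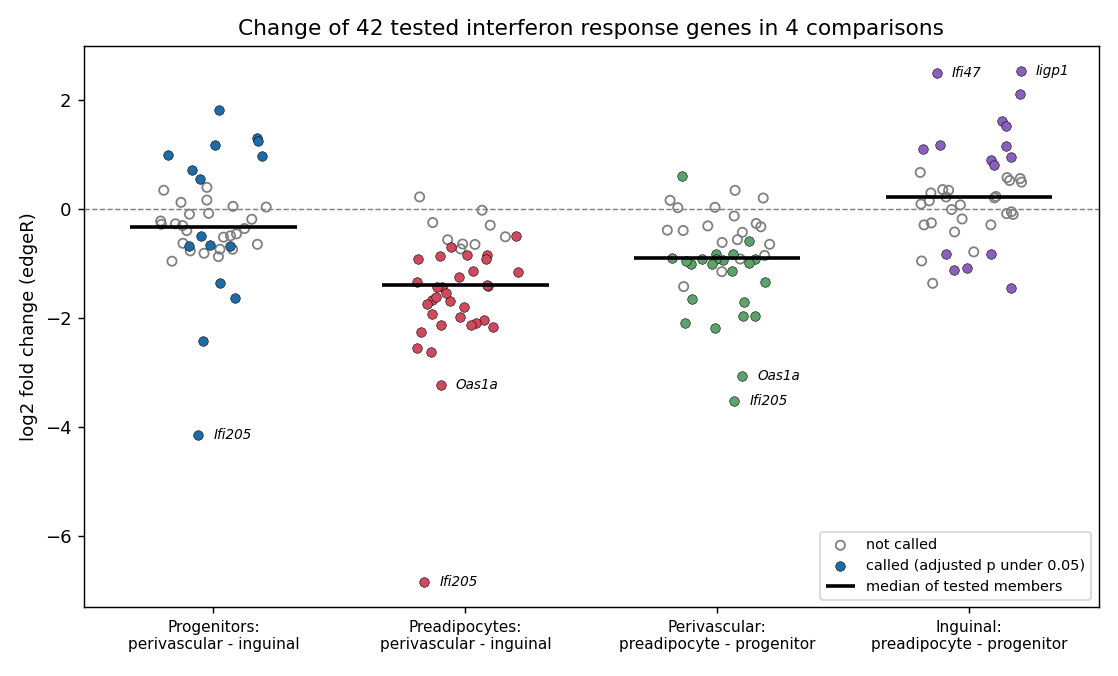
Log2 fold changes of the 42 tested members in the 4 group comparisons; filled points passed an adjusted p under 0.05 and the black bars are medians over the members. The medians are -0.33 between progenitors, -1.40 between preadipocytes, -0.90 from perivascular progenitors to preadipocytes and 0.22 from inguinal progenitors to preadipocytes.

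Within perivascular fat, the step from progenitors to preadipocytes went with lower levels of interferon response genes. Of the 42 members, 22 were lower in the preadipocytes and 1 was higher, against 16.1% and 16.8% of all genes tested. At least a 2-fold fall was called for 12 members, against 8.49% of all genes. The median was -0.90, beside -0.05 over all genes. This comparison uses the same perivascular preadipocyte libraries as the preceding one, so the lower values there enter both. All 4 OAS genes tested were lower, as were 5 of the 8 sensors, all 3 ADP-ribosylation genes and 3 of the 5 transcription factors.

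Ifi205 fell 11.4-fold (log2 -3.51, SE 0.33, adjusted p = 4.59e-05), with all 3 preadipocyte libraries below all 3 progenitor libraries. Ifi203 fell 4.23-fold (log2 -2.08, SE 0.25, adjusted p = 0.000223), Ifi204 3.91-fold (log2 -1.97, SE 0.18, adjusted p = 3.97e-05) and Zbp1 3.13-fold (log2 -1.65, SE 0.4, adjusted p = 0.00837). Of the OAS genes, Oas1a fell most (log2 -3.06, SE 0.75, adjusted p = 0.00892) from 0.762 ± 0.535 to 0.0862 ± 0.0811 CPM, on few counts. Oasl2 fell 3.25-fold (log2 -1.7, SE 0.23, adjusted p = 0.000425). Oas2 went from 1.25 ± 0.402 to 0.275 ± 0.194 CPM (log2 -2.18, SE 0.56, adjusted p = 0.0113) and Oasl1 from 2.18 ± 0.268 to 0.562 ± 0.215 (log2 -1.95, SE 0.46, adjusted p = 0.00701), and neither pair of groups overlapped. Irf7 fell 2.18-fold (log2 -1.12, SE 0.2, adjusted p = 0.00152), Stat2 1.91-fold (log2 -0.93, SE 0.19, adjusted p = 0.00307) and Irf9 1.87-fold (log2 -0.91, SE 0.13, adjusted p = 0.000566). Irf3 had a log2 fold change of 0.21 (adjusted p = 0.274).

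The GTPases were split in this comparison. Gbp2 (log2 -0.91, SE 0.18, adjusted p = 0.00306), Gbp3 (log2 -1.0, SE 0.18, adjusted p = 0.00148) and Gbp7 (log2 -0.94, SE 0.15, adjusted p = 0.000850) were lower in the preadipocytes with no overlap of libraries, while Iigp1, Irgm1 and Igtp did not pass the test. Ifi47 was lower (log2 -0.82, SE 0.27, adjusted p = 0.0335), and this call was lost without perivascular progenitor library 3, ICAM1+ preadipocyte library 1, 2 or 3 or perivascular preadipocyte library 1 or 2 (log2 -1.16 to -0.71, adjusted p up to 0.119). Parp9 (log2 -0.82, SE 0.16, adjusted p = 0.00229), Dtx3l (log2 -0.99, SE 0.2, adjusted p = 0.00327) and Xaf1 (log2 -0.9, SE 0.15, adjusted p = 0.00102) were also lower. Parp14 was lower (log2 -1.33, SE 0.36, adjusted p = 0.0141), a call lost without perivascular progenitor library 3 or perivascular preadipocyte library 3 (log2 -1.69 to -1.1, adjusted p up to 0.0621), and Ifit3 was lower (log2 -1.01, SE 0.29, adjusted p = 0.0193), a call lost without perivascular progenitor library 3 or perivascular preadipocyte library 2 or 3 (log2 -1.5 to -0.82, adjusted p up to 0.0844). Ifi27 alone was higher in the preadipocytes (1.53-fold, log2 0.61, SE 0.17, adjusted p = 0.0161), a call lost without perivascular progenitor library 3 or perivascular preadipocyte library 2 or 3 (log2 0.47 to 0.76, adjusted p up to 0.0726).

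Of the 16 genes of blood cells and macrophages, edgeR called 0 in this comparison (1 lower at an unadjusted p under 0.05 and by DESeq2), and their sum was 33.5 to 87.4 CPM in progenitors and 42.1 to 60.7 in preadipocytes. Of the 8 endothelial genes 3 were lower, with sums of 185 to 257 and 57.9 to 93.4 CPM, and of the 9 mesothelial genes 4 were lower, with sums of 146 to 239.5 and 39.4 to 85.2 CPM. Of the 6 mast cell genes tested 3 were higher and 1 lower, with sums of 9.24 to 12.4 and 17.8 to 24.4 CPM. Of the 6 Schwann cell genes 1 was lower, and of the 8 smooth muscle and pericyte genes 2 were higher and 2 lower. Their part in the members' fall was not tested. Without the 3 libraries that stood apart, 26 members were lower and 2 higher. With library totals the median of all genes was 0.12 and 19 members were lower and 2 higher. Over the fits without 1 library 17 to 24 were lower, and over the other alternatives 16 to 26.

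Within inguinal fat, the step between the groups labelled progenitors and preadipocytes went the other way for several members. Because the markers of the perivascular sorts are not stated, the steps of the 2 depots may not match. From DPP4+ progenitors to ICAM1+ preadipocytes, 11 of the 42 members rose and 5 fell, against 9.34% and 8.61% of all genes tested. The rise was at least 2-fold for 8 members, against 7.17% of all genes, and the fall for 3, against 5.57%. The median was 0.22, beside 0.02 over all genes. The ICAM1+ libraries are the same as in the comparison of the preadipocytes, so their values enter both. Of the 7 GTPases 5 were higher and 0 lower, also at an unadjusted p under 0.05 and by DESeq2. Of the 8 sensors and their regulators 4 were lower and 1 was higher.

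Iigp1 rose 5.78-fold (log2 2.53, SE 0.21, adjusted p = 4.40e-06) and Ifi47 5.7-fold (log2 2.51, SE 0.28, adjusted p = 5.29e-05), each with all 3 ICAM1+ libraries above all DPP4+ libraries. Igtp rose 2.26-fold (log2 1.17, SE 0.2, adjusted p = 0.00107), Irgm1 2.24-fold (log2 1.16, SE 0.16, adjusted p = 0.000200) and Gbp2 1.95-fold (log2 0.96, SE 0.18, adjusted p = 0.00242). Isg15, at 1.08 ± 0.343 CPM in DPP4+ progenitors, was at 4.67 ± 0.564 in ICAM1+ preadipocytes (4.33-fold, log2 2.11, SE 0.34, adjusted p = 0.000753). Trim25 rose 2.89-fold (log2 1.53, SE 0.23, adjusted p = 0.000435), Ifi27 3.06-fold (log2 1.61, SE 0.17, adjusted p = 3.84e-05) and Xaf1 1.75-fold (log2 0.81, SE 0.14, adjusted p = 0.00164). Irf1 rose 1.87-fold (log2 0.91, SE 0.22, adjusted p = 0.0127), a call lost without DPP4+ progenitor library 3 or ICAM1+ preadipocyte library 1 (log2 0.83 to 1.03, adjusted p up to 0.0590). The rise of Ifit3b (log2 1.11, SE 0.36, adjusted p = 0.0474) was lost in 9 of the fits without 1 library and in the fit with the pools as a block. Neither Stat2 nor Irf9 passed the test, and Irf3 had a log2 fold change of -0.09 (adjusted p = 0.716). That of Irf3 was 0.29 with library totals and 0.03 without DPP4+ library 3.

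Zbp1 fell 2.72-fold (log2 -1.44, SE 0.32, adjusted p = 0.00650) and Ifi204 2.12-fold (log2 -1.08, SE 0.17, adjusted p = 0.000746), both without overlap. The falls of Ifi205 (log2 -0.81, SE 0.21, adjusted p = 0.0178) and Cmpk2 (log2 -1.11, SE 0.3, adjusted p = 0.0211) were lost in some fits without 1 library. That of Ifi205 was lost without DPP4+ progenitor library 3 or ICAM1+ preadipocyte library 1 or 3 (log2 -0.94 to -0.65, adjusted p up to 0.0948), and that of Cmpk2 without DPP4+ progenitor library 2 or 3 or ICAM1+ preadipocyte library 1 or 3 (log2 -1.25 to -0.99, adjusted p up to 0.0905). Ifi203 also fell (log2 -0.82, SE 0.24, adjusted p = 0.0290), a call lost without DPP4+ progenitor library 1 or 2 or ICAM1+ preadipocyte library 1, 2 or 3 (log2 -1.02 to -0.67, adjusted p up to 0.124). Of the 16 genes of blood cells and macrophages edgeR called 0 between these groups, with sums of 77.7 to 278 CPM in DPP4+ progenitors and 80.5 to 93.7 in ICAM1+ preadipocytes. At an unadjusted p under 0.05, 2 of these genes were lower, and DESeq2 called 0. Ptprc, the surface gene common to white blood cells, was at 15.4 CPM in DPP4+ library 2, against 3.64 and 2.79 in the other DPP4+ libraries. Of the 6 Schwann cell genes 3 were higher in ICAM1+ preadipocytes, with sums of 29.5 to 73.5 and 118 to 135 CPM. The 8 smooth muscle and pericyte genes had 4 higher and 2 lower, with sums of 781 to 919 and 653 to 761 CPM. The endothelial sum was 757 to 957 CPM in DPP4+ progenitors and 161 to 191 in ICAM1+ preadipocytes, with 1 of the 8 genes lower. Of the mast cell genes 1 was lower, and of the 9 mesothelial genes 2 were higher and 1 lower. The part of these cells in the members' values was not tested. Without the 3 libraries that stood apart, 11 members rose and 6 fell. With library totals the median of all genes was 0.40, and 20 members were higher and 2 lower.

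The difference between the 2 stage steps was tested as the interaction of depot and stage. It equals the difference between the 2 depot comparisons and uses the same libraries, so it adds no independent data. For 24 of the 42 members the change from progenitor to preadipocyte was lower in perivascular than in inguinal fat, and for 0 it was higher, against 8.66% and 6.37% of all genes tested. The median difference was -1.13 on the log2 scale, beside -0.0032 over all genes. All 7 GTPases and all 3 ADP-ribosylation genes were among the 24, with 4 of the 8 sensors and 3 of the 5 transcription factors. DESeq2 called 26 lower and 0 higher, and at an unadjusted p under 0.05 there were 0 higher. By sign alone, with or without a call, 20 members had values below 0 in perivascular and above 0 in inguinal fat, 16 had values below 0 in both, 5 above 0 in both and 1 the reverse. Values below 0 for the difference itself were found in 37 members. Shares over all genes were not taken for these counts by sign.

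Ifi47 differed most (log2 -3.34, SE 0.39, adjusted p = 0.000203), with a perivascular change of -0.82 and an inguinal one of 2.51. Iigp1 (log2 -2.91, SE 0.29, adjusted p = 5.71e-05), Ifi205 (log2 -2.7, SE 0.41, adjusted p = 0.00113) and Isg15 (log2 -2.67, SE 0.46, adjusted p = 0.00257) followed. Gbp2 fell in perivascular and rose in inguinal fat (log2 -1.87, SE 0.26, adjusted p = 0.000604), as did Xaf1 (log2 -1.71, SE 0.21, adjusted p = 0.000241). These with Ifi47 were the 3 members called in opposite directions in the 2 steps. The share of all genes with such opposite calls was not taken. As given above, the perivascular call of Ifi47 was lost in some fits without 1 library. For Irgm1 (log2 -1.47, SE 0.22, adjusted p = 0.00106), Igtp (log2 -1.14, SE 0.28, adjusted p = 0.0168) and Trim25 (log2 -1.5, SE 0.32, adjusted p = 0.00907) the inguinal rise was called and the perivascular change was not. For Stat2 (log2 -1.46, SE 0.26, adjusted p = 0.00341), Irf9 (log2 -1.0, SE 0.18, adjusted p = 0.00383), Irf7 (log2 -1.12, SE 0.27, adjusted p = 0.0166), Gbp3 (log2 -1.3, SE 0.24, adjusted p = 0.00431) and Oasl2 (log2 -2.06, SE 0.32, adjusted p = 0.00140) the perivascular fall was called and the inguinal change was not. Ifi27 rose in both depots, by less in perivascular fat (log2 -1.0, SE 0.24, adjusted p = 0.0162).

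**Figure D4:**
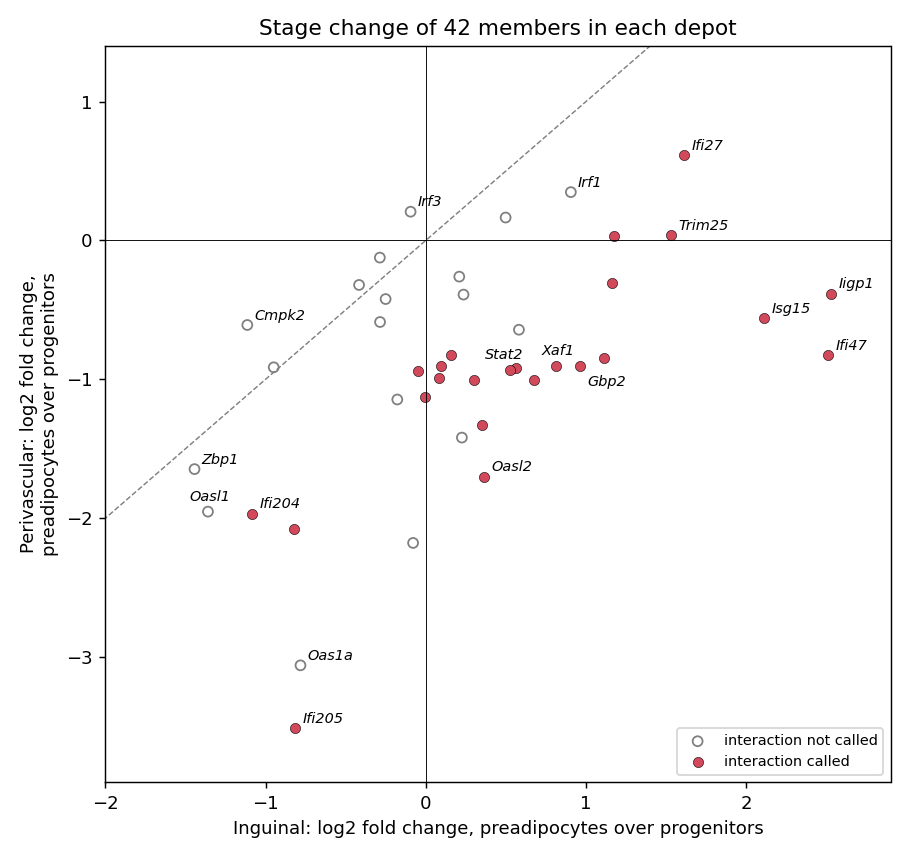
Change from progenitor to preadipocyte of the 42 tested members, inguinal on the horizontal and perivascular on the vertical axis (log2 fold changes); filled points have a called interaction and the dashed line marks equal change. Of the members, 37 lie below the line, and Ifi47, Iigp1 and Ifi205 lie farthest from it.

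Not all of these calls were stable. Over the fits that each left out 1 library, 18 to 26 members had a lower step in perivascular fat, and 18 of the 24 kept their call in each. The other 6 were Ifit3b, Mx2, Parp14, Dtx3l, Ifi203 and Ifi204. Ifit3b was lost without ICAM1+ preadipocyte library 2 or perivascular preadipocyte library 2 (log2 -2.39 to -1.64, adjusted p up to 0.0617). Ifi203 was lost without DPP4+ progenitor library 3, perivascular progenitor library 2, ICAM1+ preadipocyte library 1 or 3 or perivascular preadipocyte library 2 or 3 (log2 -1.44 to -1.06, adjusted p up to 0.0708), and Dtx3l without DPP4+ progenitor library 1 or 3, perivascular progenitor library 3, ICAM1+ preadipocyte library 2 or 3 or perivascular preadipocyte library 2 or 3 (log2 -1.27 to -0.88, adjusted p up to 0.0620). Ifi204 kept its call only without perivascular progenitor library 1 or 2 or perivascular preadipocyte library 1 or 3 (log2 -1.06 to -0.77, adjusted p up to 0.0794). Mx2 kept it only without DPP4+ progenitor library 2, perivascular progenitor library 1 or perivascular preadipocyte library 1 (log2 -1.79 to -1.25, adjusted p up to 0.0738). Parp14 kept it only without library 1 of either perivascular group (log2 -2.02 to -1.44, adjusted p up to 0.0930). With the pools as a block 22 members were called, without the 3 libraries that stood apart 26, and with library totals 25. Of the 16 genes of blood cells and macrophages, 0 had an interaction called by edgeR, by DESeq2 or at an unadjusted p under 0.05, and the same held for the 8 endothelial genes. Other lists did move with the interaction. Of the 6 mast cell genes 4 had a higher step in perivascular fat, while 3 of the 9 mesothelial genes and 1 of the 6 Schwann cell genes had a lower one. The smooth muscle and pericyte genes had 1 higher and 1 lower. Of the 7 preadipocyte markers 4 were lower, and of the 9 progenitor markers 2 were higher and 2 lower. The part of these cells in the members' interaction was not tested.

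Between the progenitors of the 2 depots, members were called in both directions. Relative to DPP4+ progenitors, 8 of the 42 were higher in perivascular progenitors and 8 were lower, against 13% and 11.8% of all genes tested. The median was -0.33, beside 0.05 over all genes. Both counts were not far from the shares of all genes, and they depended on the scaling, with 13 higher and 4 lower under library totals. GTPases made up 4 of the 8 that were higher, and sensors 3 of the 8 that were lower. The 8 lower ones, Irf7, Irf9, Cmpk2, Gbp7, Ifi204, Ifi205, Zbp1 and Samhd1, were also the members lower in both depot comparisons, against 7.54% of all genes. The comparisons share no library, but their libraries come from the same 3 pools of pups.

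Isg15 was 3.52-fold higher in perivascular progenitors (log2 1.82, SE 0.34, adjusted p = 0.00173), at 3.8 ± 0.811 against 1.08 ± 0.343 CPM. Ifi47 was 2.37-fold higher (log2 1.25, SE 0.28, adjusted p = 0.00583), Iigp1 2.0-fold (log2 1.0, SE 0.2, adjusted p = 0.00292), Ifi27 1.98-fold (log2 0.98, SE 0.17, adjusted p = 0.00110) and Gbp2 1.64-fold (log2 0.72, SE 0.18, adjusted p = 0.0115), each with no overlap of libraries. Ifit3 was higher (log2 1.18, SE 0.3, adjusted p = 0.0111), a call lost without DPP4+ progenitor library 2 (log2 1.07 to 1.35, adjusted p up to 0.0505). Ifit3b was higher (log2 1.31, SE 0.36, adjusted p = 0.0167), a call lost without DPP4+ progenitor library 2 or 3 (log2 1.0 to 1.74, adjusted p up to 0.0569). Irgm1 was higher (log2 0.55, SE 0.16, adjusted p = 0.0197), a call lost without DPP4+ progenitor library 2 or 3 or perivascular progenitor library 3 (log2 0.46 to 0.62, adjusted p up to 0.0825).

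Ifi205 was 17.7-fold lower in perivascular than in DPP4+ progenitors (log2 -4.14, SE 0.25, adjusted p = 2.58e-07), Zbp1 5.34-fold (log2 -2.42, SE 0.34, adjusted p = 0.000198), Cmpk2 3.1-fold (log2 -1.63, SE 0.31, adjusted p = 0.00173) and Ifi204 2.57-fold (log2 -1.36, SE 0.17, adjusted p = 0.000101). Irf9 (log2 -0.67, SE 0.13, adjusted p = 0.00212) and Samhd1, which hydrolyses nucleotides and limits retroviruses (log2 -0.65, SE 0.14, adjusted p = 0.00516), were lower as well, except with library totals. Irf7 was lower (log2 -0.68, SE 0.19, adjusted p = 0.0200), a call lost without DPP4+ progenitor library 2 or 3 or perivascular progenitor library 1 (log2 -0.75 to -0.59, adjusted p up to 0.0661), and Gbp7 was lower (log2 -0.49, SE 0.15, adjusted p = 0.0257), a call lost without DPP4+ progenitor library 1 or 3 or perivascular progenitor library 1 or 2 (log2 -0.55 to -0.42, adjusted p up to 0.104). Irf3 had a log2 fold change of -0.07 (adjusted p = 0.746), which was 0.05 without DPP4+ library 3 and 0.36 with library totals, and there it passed the test (adjusted p = 0.0473).

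Of the 16 genes of blood cells and macrophages, 9 were lower in perivascular progenitors and 0 higher (11 and 0 at an unadjusted p under 0.05, 10 and 0 by DESeq2), with sums of 33.5 to 87.4 against 77.7 to 278 CPM, and of the 6 mast cell genes tested 5 were lower. Of the 9 mesothelial genes 6 were higher, with sums of 146 to 239.5 against 36.3 to 38.7 CPM, and of the 8 endothelial genes 4 were lower, with sums of 185 to 257 against 757 to 957 CPM. The Schwann cell genes had 3 lower and 1 higher, and the smooth muscle and pericyte genes 3 higher and 1 lower. The part of these cells in the members' values was not tested. Without DPP4+ library 2, which held the most RNA of blood cells and mast cells, 5 members were higher. Without the 3 libraries that stood apart, 7 were higher and 9 lower. With library totals the median of all genes moved to 0.48 and that of the members to 0.10, and 13 members were higher and 4 lower.

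Outside the members, the pathway was followed in lists of related genes. Of all genes tested, 23.5% were called higher and 21.4% lower between the preadipocytes, and 16.8% and 16.1% in the perivascular step. The shares were 9.34% and 8.61% in the inguinal step, 13% and 11.8% between the progenitors, and 6.37% and 8.66% for the interaction. Counts of the lists that follow stand beside these shares, and some are near them. Of 10 interferon genes looked for, 2 had a row, Ifnk and Ifnl3, and neither had enough counts to be tested, with means up to 0.365 CPM in any group. Of the 14 receptor, kinase and STAT genes tested, 2 were higher and 7 lower in perivascular than in ICAM1+ preadipocytes, 2 higher and 4 lower in perivascular preadipocytes than progenitors, 2 higher and 2 lower in the inguinal step, and 1 higher and 4 lower between the progenitors. Ifnar1, a type I receptor chain, was at 64.3 ± 18.1 CPM in perivascular and 112 ± 9.18 in ICAM1+ preadipocytes, and at 116 ± 16.5 in perivascular and 154 ± 11.1 in DPP4+ progenitors. It was lower in perivascular preadipocytes than in ICAM1+ preadipocytes (log2 -0.81, adjusted p = 0.00467) and than in perivascular progenitors (log2 -0.85, adjusted p = 0.00558). Ifnar2, the other chain, passed the test in none of the 4 comparisons, with group means from 29.6 to 38.5 CPM.

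Jak1 was lower in both perivascular groups, at 154 ± 19.9 and 108 ± 36.2 CPM, than in their inguinal counterparts, at 379.5 ± 13.2 and 223 ± 5.21 (log2 -1.3, adjusted p = 0.000529 between progenitors and log2 -1.04, adjusted p = 0.00151 between preadipocytes). Tyk2 was at 17.8 ± 1.67 CPM in perivascular and 36.5 ± 4.88 in ICAM1+ preadipocytes (log2 -1.04, adjusted p = 0.000545) and was also lower than in perivascular progenitors (log2 -0.86, adjusted p = 0.00340).

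Of the interferon gamma receptor genes, Ifngr1 was lower in perivascular than in ICAM1+ preadipocytes (log2 -0.83, adjusted p = 0.000552) and Ifngr2 rose in the inguinal step (log2 1.29, adjusted p = 0.0153), a call lost without DPP4+ progenitor library 1 or 2 (log2 1.18 to 1.5, adjusted p up to 0.0709). Socs1, an inhibitor of the kinases, was at 35.7 ± 5.63 CPM in perivascular and 13.9 ± 2.91 in ICAM1+ preadipocytes (log2 1.36, adjusted p = 0.0371), the opposite direction to the members. That call was lost when any 1 of the 6 libraries of these groups was left out and with the pools as a block. Stat3 was lower in perivascular than in ICAM1+ preadipocytes (log2 -1.45, adjusted p = 0.000106) and had the only called interaction of this list (log2 -1.39, adjusted p = 0.00478).

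Among 17 sensing adaptors, kinases and further IRF genes tested, 2 were higher and 8 lower in perivascular than in ICAM1+ preadipocytes, and 0 were higher and 8 lower in the perivascular step (1 and 9 at an unadjusted p under 0.05 and by DESeq2). Tmem173, which encodes the DNA sensing adaptor STING, was at 22.2 ± 1.69, 8.25 ± 2.02, 33.5 ± 1.11 and 46.9 ± 1.89 CPM in perivascular progenitors, perivascular preadipocytes, DPP4+ progenitors and ICAM1+ preadipocytes. It was lower in perivascular preadipocytes than in ICAM1+ preadipocytes (log2 -2.5, adjusted p = 8.14e-07) and perivascular progenitors (log2 -1.42, adjusted p = 0.000182). Irf4, a factor of lymphocytes that is also known in adipocytes, was at 43 ± 4.0 CPM in DPP4+ progenitors, against 3.13 ± 1.13 in perivascular progenitors (log2 -3.77, adjusted p = 5.35e-05) and 5.88 ± 1.2 in ICAM1+ preadipocytes (log2 -2.86, adjusted p = 0.000406).

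Of 16 genes of class I antigen presentation, which interferon gamma is known to raise, 3 were higher and 9 lower in perivascular than in ICAM1+ preadipocytes, and 6 were higher and 0 lower in the inguinal step (8 and 0 at an unadjusted p under 0.05, 7 and 0 by DESeq2). B2m, the light chain of class I molecules, was at 336 ± 54.2, 278 ± 18.6, 401 ± 59.4 and 523 ± 22.9 CPM in the same order and was lower in perivascular than in ICAM1+ preadipocytes (log2 -0.91, adjusted p = 0.000659). H2-D1, a heavy chain gene, was lower in perivascular cells between the preadipocytes (log2 -1.69, adjusted p = 2.25e-05) and between the progenitors (log2 -1.03, adjusted p = 0.000835). The immunoproteasome subunit genes Psmb8 (log2 2.27, adjusted p = 1.94e-05) and Psmb9 (log2 2.6, adjusted p = 5.15e-05) rose in the inguinal step, as did H2-M3 (log2 2.18, adjusted p = 1.74e-06).

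A further list held interferon-stimulated genes that are no members, and it too was chosen with earlier results of these data known. Of its 48 tested genes, 0 were higher and 36 lower between the preadipocytes (0 and 40 at an unadjusted p under 0.05, 0 and 39 by DESeq2). In the perivascular step 2 were higher and 24 lower, in the inguinal step 13 higher and 6 lower, and between the progenitors 2 higher and 10 lower. The difference between the steps was called lower in perivascular fat for 22 of them and higher for 0 (26 and 0 at an unadjusted p under 0.05, 25 and 0 by DESeq2). Ifitm1, a membrane protein that blocks virus entry, was at 2.37 ± 0.391 CPM in DPP4+ progenitors and 37.8 ± 2.38 in ICAM1+ preadipocytes (log2 4.0, adjusted p = 2.40e-07), against 6.01 ± 0.239 and 3.43 ± 0.947 in the perivascular groups. The chemokine gene Cxcl10 was at 1.07 ± 0.270 and 1.72 ± 0.0537 CPM in perivascular progenitors and preadipocytes and at 12.1 ± 1.88 and 24.1 ± 0.889 in DPP4+ and ICAM1+ cells (log2 -3.5, adjusted p = 4.35e-07 between progenitors and log2 -3.81, adjusted p = 1.92e-07 between preadipocytes). Slfn5 was at 16.9 ± 4.64 CPM in perivascular preadipocytes and 132 ± 8.05 in ICAM1+ preadipocytes (log2 -2.97, adjusted p = 3.53e-05), and it was also lower than in perivascular progenitors (log2 -2.1, adjusted p = 0.000774).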

How the data were processed

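RNA was measured in 12 libraries of 4 groups with 3 libraries each. Per the labels' protocols, the sorted cells came from tissue treated with dispase II and collagenase D, and SMART-Seq v4 made libraries from poly(A) RNA. Per the submitters' processing notes, STAR 2.5.2a, DESeq2 1.26.0 and mm10 were used. The counting tool, annotation and use of strand were not given in the sources used here. Raw counts were deposited, as values per gene and library, and 0 columns were left over after matching by name. The authors' normalised and log2 tables were not used. Members were matched by symbol. Coordinates, exon lengths and overlaps come from GENCODE release M21 (GRCm38).

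Counts were fitted with edgeR 4.0.16 under R 4.3.3, with 1 mean per group, TMM scaling and the filterByExpr filter at a minimum count of 10, which left 18855 genes. Quasi-likelihood tests were two-sided, with Benjamini-Hochberg adjustment over all genes of a comparison and a call at an adjusted p under 0.05. Fold changes are those of the edgeR fit and not ratios of the mean CPM. Each SE was derived from the test, as the absolute log2 fold change divided by the square root of its F statistic. Scripts were tested on simulated counts. Alternatives were DESeq2 1.42.0, other scalings and filters, the pools as a block, 2 groups alone, and fits without single libraries or without 3 that stood apart. Log2 deviations used a prior count of 2. P-values rest on the spread of the pools around their group means, taken as 1 spread shared by the 4 groups, without pairing the pools. The groups were unlike in this. The chi-square distance per gene between 2 libraries of a group was 23.9 to 174 for perivascular preadipocytes. It was 6.83 to 88.8 for perivascular progenitors and 5.80 to 13.5 for the inguinal groups. A shared spread can thus give p-values too small for perivascular and too large for inguinal comparisons.

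Library values are printed for members called in a group comparison with at least a 2-fold change and 5 CPM or more in the group with the highest mean, and for Ifi205, Irf3, Irf9 and Stat2. Other members are given by mean, range or count. Of pathway lists, 9 chosen genes may be named and, per comparison, the 4 called ones that changed most; 1 chosen gene is not reported here. The members and lists were chosen with earlier results of these data known.

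Per the labels, libraries with the same number hold tissue of the same pooled pups. As a check of this pairing, the correlation of deviations from the group means had a median of 0.0093 (-0.21 to 0.15, 18 pairs) for the same number and 0.0087 (-0.20 to 0.27, 36 pairs) for different numbers.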

Additional observations from a re-analysis of the deposited data

Results flagged for a closer look

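For 24 members the difference between the stage changes of the 2 depots (perivascular minus inguinal, log2 scale) passed the interaction test. In the GTPase families it was -3.34 for Ifi47, -2.91 for Iigp1, -1.87 for Gbp2, -1.47 for Irgm1, -1.30 for Gbp3, -1.14 for Igtp and -0.90 for Gbp7. Among the sensors and their regulators it was -2.70 for Ifi205, -1.50 for Trim25, -1.26 for Ifi203 and -0.88 for Ifi204. The transcription factors had -1.46 (Stat2), -1.12 (Irf7) and -1.0 (Irf9). The effector genes had -2.67 (Isg15), -2.06 (Oasl2), -1.96 (Ifit3b), -1.68 (Ifit3) and -1.48 (Mx2). Parp14 had -1.68, Dtx3l -1.07 and Parp9 -0.98, while Xaf1 had -1.71 and Ifi27 -1.0. All 24 differences were below 0, and the report names the 6 of them that were lost in fits without 1 library.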

How the results depend on the processing

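Of the members called, 11 of 16 between progenitors, 27 of 33 between preadipocytes, 17 of 23 in the perivascular step, 11 of 16 in the inguinal step and 18 of 24 in the interaction kept their call whichever 1 library was left out, and 0 called members reversed under any alternative. Over those fits the count of members higher between progenitors was 5 to 8 and lower 7 to 10. In the perivascular step it was 0 to 2 higher, and in the inguinal step 9 to 14 higher and 2 to 7 lower. The inguinal falls dropped from 5 to 3 without DPP4+ library 2 or 3 and to 2 without ICAM1+ library 1 or 3. The perivascular rise, 1 member, was 2 without progenitor library 1 and 0 without progenitor library 3 or preadipocyte library 2 or 3. Library totals in place of TMM factors gave 13 higher and 4 lower between progenitors, 1 higher between preadipocytes, 2 higher in the perivascular step, and 20 higher and 2 lower in the inguinal step. Under library totals the share of called genes that were higher, over all genes, went from 52.5% to 83.7% between progenitors, from 52.2% to 66.5% between preadipocytes, from 51.1% to 66.3% and from 52.0% to 82.6% in the perivascular and inguinal steps, and from 42.4% to 23.3% in the interaction, with a median over all genes of 0.48, 0.27, 0.12, 0.40 and -0.21. With the 2 groups fitted alone, the perivascular step had 0 members higher and the inguinal step 8 lower, and the interaction has no such fit. Members lower in the perivascular step, 22 in the main fit, were 16 to 26 over the alternatives that include this fit. Over all genes, calls with the 2 groups fitted alone went from 6198 to 2825 in the perivascular step and from 3384 to 5757 in the inguinal step. Such a fit takes its spread from its own 2 groups, while the main fit shares 1 spread among the 4. Without the 3 libraries that stood apart, 2 were higher in the perivascular step. With the replicate block, which pairs the pools, the counts were 8 higher and 8 lower, 0 and 33, 1 and 22, 10 and 5, and 0 and 22, in the order used above, so the block moved no count by over 1.5 times. Irf3 reversed between progenitors from -0.07 to 0.36 with library totals (adjusted p = 0.0473) and 0.050 without DPP4+ library 3 (-0.19 to 0.050 over the fits without 1 library), and in the inguinal step from -0.09 to 0.29 and 0.031. Ifi27 between preadipocytes reversed from -0.02 to 0.21 with library totals, 0.01 without ICAM1+ library 1, 0.11 without perivascular preadipocyte library 1 (-0.19 to 0.11 over those fits) and 0.11 without the 3 libraries; none of these but the first Irf3 value passed the test, and the cause was not tested. Ifi44, Rsad2, Oas2 and Oas1a, with no group mean above 1.47 CPM, rest on few counts, and a difference there may not be detectable at this depth.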
